A study of Mus musculus with 9 samples.

Results

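The Ms4a genes encode small proteins that cross the cell membrane several times, and their best known member is the B-cell antigen CD20. The 7 genes described here were taken by symbol from the 9 count tables, out of 15265 genes listed in all, with a symbol missing from a table counted as 0. They were Ms4a1, Ms4a2, Ms4a3, Ms4a4c, Ms4a6b, Ms4a6c and Ms4a6d. The data were Drop-seq profiles, in which single cells and barcoded beads are enclosed in droplets, of unselected whole bone marrow from C57BL/6 mice 2-3 weeks old. There were 5 libraries from NG2-cre/Pot1a wt/wt mice (Pot1a wt/wt) and 4 from NG2-cre/Pot1a fl/fl mice (Pot1a fl/fl), with 100 cell barcodes in each, and 899 of 900 barcodes were kept.

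Mice of both genotypes carried the NG2-cre transgene, which is driven by the Cspg4 (NG2) regulatory sequences and acts in pericytes and marrow mesenchymal stem cells. Pot1a encodes a telomere-binding protein, and in the Pot1a fl/fl mice the deletion is directed at those stromal cells and not at the blood lineages measured here. The comparison of genotypes therefore asks whether blood cells in a marrow with altered stroma differ in the levels of these genes. By the study's own account fewer mice than libraries were profiled per group, which libraries share a mouse is not given, and p-values therefore measure the spread between libraries, which may be technical. Pot1a wt/wt replicates 2 and 3 shared 19 of their 100 cell barcodes, and none of the other pairs of libraries shared any of the 36 compared. Library totals ran from 119459 to 465277 counts, and Y-linked transcripts exceeded Xist in Pot1a wt/wt replicates 2 and 3 and Pot1a fl/fl replicate 2 alone.

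As background, members of the family mark separate branches of blood formation. Ms4a1 encodes CD20, which appears on B cells as they mature. Ms4a2 encodes the beta chain of the high-affinity IgE receptor of basophils and mast cells, and Ms4a3 encodes HTm4, a protein of early granulocytes and their progenitors. Ms4a4c, Ms4a6b, Ms4a6c and Ms4a6d are known mainly from monocytes, macrophages and, for Ms4a6b, T cells. In older records the symbols Ms4a1 and Ms4a2 were used for each other's gene, and the cells that held their counts, described below, were B-marker cells and basophil-marker cells, as the present symbols have it.

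The 7 genes lie together on chromosome 19 within 391 kb, from position 11249675 to 11640851 of GRCm38 (mm10) in the GENCODE annotation. The whole family of 19 protein-coding Ms4a genes annotated on that chromosome starts further out, at position 10962293, and ends at the same position. Ms4a1 (chr19:11249675-11266241, minus strand) stands at one end and Ms4a3 (chr19:11629496-11640851, minus strand) at the other. Ms4a2 (chr19:11615523-11623719, minus strand) is the neighbour of Ms4a3. Between them are Ms4a4c (chr19:11404770-11427246), Ms4a6c (chr19:11469366-11482192) and Ms4a6b (chr19:11516512-11531256), all on the plus strand, and Ms4a6d (chr19:11586604-11604849) on the minus strand. Genes on the opposite strand overlap Ms4a1, Ms4a4c, Ms4a6c and Ms4a6b, and the sources used here do not give whether the counting used strand.

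Of the 7 genes, 5 had a promoter in the RefSeq table for GRCm38.p6, namely Ms4a2, Ms4a3, Ms4a4c, Ms4a6b and Ms4a6c. The 250 bases before the RefSeq start are printed for 3 of them, because Ms4a6b and Ms4a6c share a stretch of sequence and because Ms4a2, whose counts lay in a few basophil-marker cells, holds several matches to a GATA motif. The Ms4a6c window was chr19:11469118-11469367 (plus strand), the Ms4a6b window chr19:11518309-11518558 (plus strand), inside the GENCODE gene, and the Ms4a2 window chr19:11623720-11623969 (minus strand). Capitals mark matches to AGGAAGT, a core of the PU.1 site, in Ms4a6c and Ms4a6b and to AGATAA, a core of the GATA site, in Ms4a2, each on either strand.
Ms4a6c: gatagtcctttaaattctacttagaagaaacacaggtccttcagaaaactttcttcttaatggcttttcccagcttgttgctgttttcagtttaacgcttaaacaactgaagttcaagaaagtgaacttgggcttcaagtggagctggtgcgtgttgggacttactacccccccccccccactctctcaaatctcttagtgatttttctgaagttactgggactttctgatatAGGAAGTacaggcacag
Ms4a6b: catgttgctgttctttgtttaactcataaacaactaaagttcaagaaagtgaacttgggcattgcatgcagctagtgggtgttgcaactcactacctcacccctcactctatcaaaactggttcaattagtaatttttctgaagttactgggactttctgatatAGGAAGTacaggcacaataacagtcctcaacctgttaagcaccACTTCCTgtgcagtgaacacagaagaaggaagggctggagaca
Ms4a2: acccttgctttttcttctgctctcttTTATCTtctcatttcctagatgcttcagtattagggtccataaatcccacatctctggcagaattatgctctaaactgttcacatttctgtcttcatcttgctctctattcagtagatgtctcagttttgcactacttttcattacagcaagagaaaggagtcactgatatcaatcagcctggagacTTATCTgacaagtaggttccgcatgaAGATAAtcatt

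The AGGAAGT letters occurred once in the Ms4a6c window and at 2 places in the Ms4a6b window, and 7.69% of all 32851 RefSeq windows of this length held them at least once. AGATAA occurred at 3 places in the Ms4a2 window, and 9.99% of windows held it at least once. The longest identical run between the Ms4a6c and Ms4a6b windows was 48 bases, from base 202 to 249 of the first and from base 133 to 180 of the second, and it holds an AGGAAGT match in both. No other pair among these 5 windows and that of Ms4a4b, a neighbouring gene, had an identical run of more than 20 bases, and that run joined Ms4a4c and Ms4a4b. The motifs TTGCNNAA (C/EBP) and GAAA, 2 bases of any kind, GAAA (IRF), which 9.56% and 2.98% of all windows held on either strand, were in none of the 5 windows, and the Ms4a3 and Ms4a4c windows held none of the 4 motifs. These matches are letters in a window, and nothing in these data bears on binding there.

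The close relation of some members also bears on counting, since the reads of the sequencing kit used were short. Among all stretches of 50 bases in the last 500 bases of the coding transcripts, none from Ms4a1, Ms4a2, Ms4a3 or Ms4a6d occurred in the transcript of another gene. For Ms4a6c 13.7% did, mostly in Ms4a6b, for Ms4a4c 11.1% did, mostly in Ms4a4b, and for Ms4a6b 1.22% did, all in Ms4a6c. Counts of Ms4a4c, Ms4a6b and Ms4a6c could therefore have lost or gained some shared reads.

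Cells were grouped without use of any Ms4a gene. Clustering gave 9 groups, of which 2 with Igkc, Cd72, Igll1 or Vpreb1 among their leading genes were B-lineage-like (225 cells), 3 were granulocyte-like (325 cells), 1 led by F13a1 and Ccr2 was monocyte/macrophage-like (65 cells) and 1 led by globin genes was erythroid-like (147 cells). The granulocyte-like clusters were led by the primary granule proteases Ctsg, Mpo and Elane (cluster 3, 135 cells), by Camp, Ngp and Lcn2 (cluster 1, 150 cells) and by Mmp8, Retnlg and Cxcr2 (cluster 8, 40 cells). A cluster led by Mt2 and Car1 (cluster 5, 106 cells) was not named, and the remaining cluster was mesenchymal/osteolineage-like (31 cells). Median counts per cell were 2209 in B-lineage-like, 2276 in granulocyte-like and 1998 in monocyte/macrophage-like cells. The monocyte/macrophage-like class had 5 to 9 cells per library, with 7545 to 34278 counts of all genes. Library values of a sparse gene in that class therefore rest on few counts.

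The family split by lineage in most of its counted members, and it did so between granulocyte-like and monocyte/macrophage-like cells in every library. Ms4a3 was high in granulocyte-like cells and Ms4a6c in monocyte/macrophage-like cells in 9 of 9 libraries each. Ms4a4c followed Ms4a6c, Ms4a6b was found in both of these classes, and Ms4a1 was highest in B-lineage-like cells in 6 of 9 libraries. Ms4a2 and Ms4a6d had 13 and 6 counts and allow no comparison of classes. Levels are in CPM, the counts of a gene scaled to a common total over the cells in question, and stand here as a description with no test, since the genes were chosen with this pattern known.

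**Figure D1:**
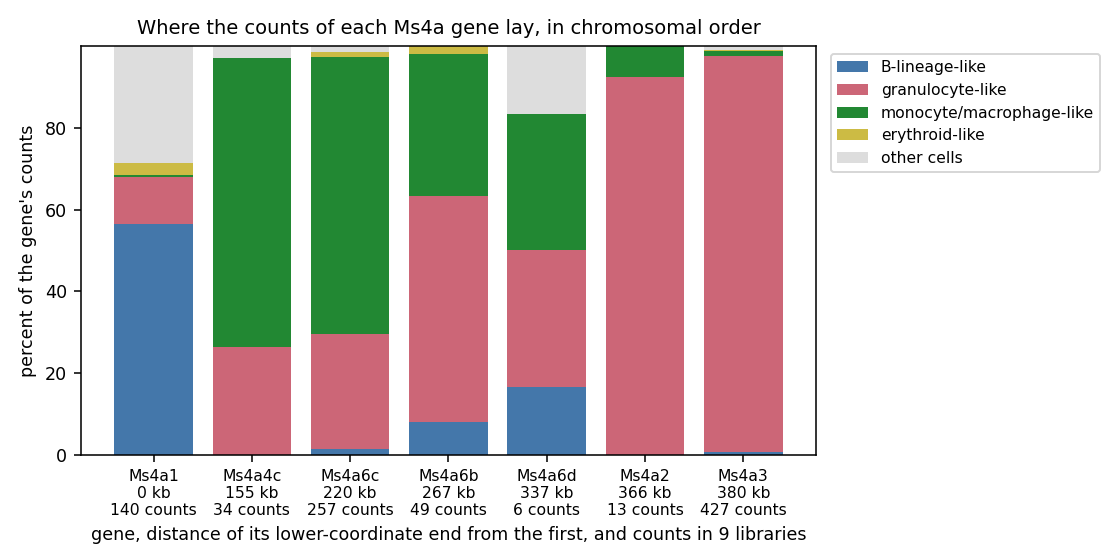
Percent of each gene's counts over 9 libraries (y axis) that lay in B-lineage-like, granulocyte-like, monocyte/macrophage-like, erythroid-like and other cells, with the genes in their order on chromosome 19 (x axis). B-lineage-like cells held 56.4% of Ms4a1 counts, granulocyte-like cells 97.0% of Ms4a3 counts and monocyte/macrophage-like cells 67.7% of Ms4a6c counts.

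Ms4a3 had 427 counts in 127 cells, and 414 of them lay in granulocyte-like cells. In that class its level was 258.6, 206, 348, 760 and 535 CPM in Pot1a wt/wt replicates 1 to 5 and 426, 633, 592 and 357 CPM in Pot1a fl/fl replicates 1 to 4. The lowest of these 9 values was above the highest value of the gene in B-lineage-like, monocyte/macrophage-like or erythroid-like cells of any library, which was 133 CPM. A separation this complete in favour of granulocyte-like cells was found for 0.489% of 7359 genes. The mean was 457 ± 185 CPM (SD, n = 9 libraries), against 42.2 ± 54.2 CPM in monocyte/macrophage-like, 3.89 ± 7.75 CPM in B-lineage-like and 2.17 ± 6.51 CPM in erythroid-like cells. The last 3 do not differ beyond their spread.

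Within granulocyte-like cells the level of Ms4a3 differed between the clusters. Pooled over libraries it was 707 CPM in the protease cluster (348 counts, 95% Poisson interval 635 to 786), 183 CPM in the Camp and Ngp cluster (66 counts, interval 141 to 233) and 0 of 40 cells in the Mmp8 and Retnlg cluster, which allows up to 7.5% of cells with a count and up to 59.6 CPM, and does not bound the share of cells that express the gene. Such intervals cover counting error only. Median counts per cell in the last of these were 1469.5. Pooled, the protease cluster was the highest of the 9 clusters in this gene. Counts were found in 55.6% of its cells (Wilson interval 47.1% to 63.7%) and in 0.68% of erythroid-like cells, a class that should lack the gene. With each cell thinned to 500 counts, which left out 1 of 325 granulocyte-like cells, 14.3% of granulocyte-like cells would still show the gene, against 35.1% unthinned.

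Ms4a6c had 257 counts in 99 cells, and 174 of them lay in the 65 monocyte/macrophage-like cells. Its level there was 634, 1265, 1605, 1556 and 530.2 CPM in Pot1a wt/wt replicates 1 to 5 and 1230.1, 1179, 1361 and 846 CPM in Pot1a fl/fl replicates 1 to 4. Each of these was above the highest value in granulocyte-like, B-lineage-like or erythroid-like cells, 194 CPM in the granulocyte-like cells of Pot1a fl/fl replicate 4, a separation that 0.34% of genes showed in favour of this class. The mean was 1134 ± 384 CPM (SD, n = 9), against 80.7 ± 62.7 CPM in granulocyte-like, 11.2 ± 21.3 CPM in erythroid-like and 10.9 ± 17.8 CPM in B-lineage-like cells. The gene had a count in 56 of 65 monocyte/macrophage-like cells (86.2%, Wilson interval 75.7% to 92.5%), and 46.0% would still show it when thinned to 500 counts. In erythroid-like cells, which have a higher median depth of 2344 counts, the share was 2.04%. Outside these classes, Ms4a6c had 3 counts in 2 mesenchymal/osteolineage-like cells, 1 of them the only such cell of Pot1a wt/wt replicate 2, with 977 counts in all.

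Ms4a4c was sparse, with 34 counts in 26 cells, and 24 of its counts lay in monocyte/macrophage-like cells. It was highest in that class in 8 of 9 libraries, with Pot1a wt/wt replicate 5 at 0, and ranged from 0 through a median of 118 to 261 CPM. Its level in Pot1a fl/fl replicate 3 rested on 1 count. The mean was 131 ± 76.9 CPM (SD, n = 9) against 8.24 ± 9.68 CPM in granulocyte-like cells, and no count was found in 225 B-lineage-like or 147 erythroid-like cells, which allows shares of cells with a count of up to 1.33% and 2.04%. For a gene with a count in 29.2% of the cells of its highest class, these limits hold for detection and not for expression. Ms4a6b had 49 counts in 34 cells and was highest in monocyte/macrophage-like cells in 5 libraries and in granulocyte-like cells in the other 4. Its means, 98.4 ± 94.7 and 31.3 ± 31.7 CPM, are less far apart than the larger SD.

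In the 65 monocyte/macrophage-like cells the family members were found in the same cells. All 19 cells with an Ms4a4c count and all 12 with an Ms4a6b count also had an Ms4a6c count, and 6 cells had counts of both Ms4a4c and Ms4a6b. Since 56 of the 65 cells had an Ms4a6c count, such overlap is frequent whatever the pairing. Ms4a3 was found in 5 of the 65 cells, of which 3 also held Ms4a6c.

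Ms4a6d, a myeloid member of the same subfamily, was at the limit of detection, with 6 single counts in 6 cells. Of these, 2 lay in monocyte/macrophage-like cells, both in Pot1a fl/fl replicate 3, 2 in granulocyte-like cells, 1 in a B-lineage-like and 1 in a mesenchymal/osteolineage-like cell.

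**Figure D2:**
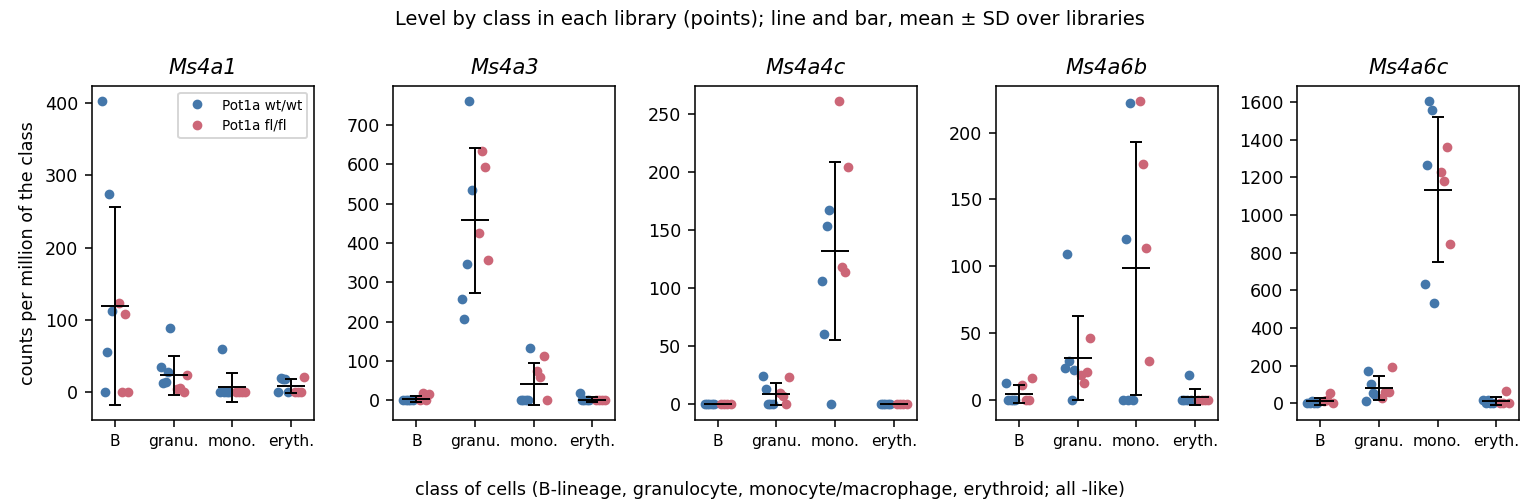
Level in CPM (y axis, linear, a separate scale per gene) of the 5 genes with at least 30 counts in 4 classes of cells (x axis), 1 point per library coloured by genotype, with the mean and SD over 9 libraries. Granulocyte-like points of Ms4a3 and monocyte/macrophage-like points of Ms4a6c lie above all points of the other classes, whereas those of Ms4a6b in the 2 classes overlap.

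Ms4a1 was higher in B-lineage-like cells on average, without a complete separation. It had 140 counts in 54 cells, of which 79 counts in 23 cells were B-lineage-like. The level in B-lineage-like cells was 403, 0, 55.4, 274 and 112 CPM in Pot1a wt/wt replicates 1 to 5 and 123, 0, 108 and 0 CPM in Pot1a fl/fl replicates 1 to 4, with a mean of 119 ± 138 CPM (SD, n = 9). In granulocyte-like, erythroid-like and monocyte/macrophage-like cells the means were 23.6 ± 27.1, 8.44 ± 10.03 and 6.69 ± 20.1 CPM. The libraries thus overlap between classes, where 0.639% of genes were separated in favour of B-lineage-like and 1.03% in favour of erythroid-like cells. A count was found in 10.2% of B-lineage-like cells (Wilson interval 6.91% to 14.9%) and in 3.69% of granulocyte-like cells.

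Within B-lineage-like cells, Ms4a1 was 186 CPM (51 counts, Poisson interval 139 to 245) in the cluster led by Fcrla, Cd72 and Igkc and 79.7 CPM (28 counts, interval 53.0 to 115) in the cluster led by the surrogate light chain genes Igll1 and Vpreb1. In the second of these, counts came from 3 of 9 libraries.

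Most Ms4a1 counts came from few cells. The 13 cells with 3 or more counts held 92 of the 140 counts, and 8 of the 13 were in B-lineage-like clusters. The cell with the most, 14 counts, came from Pot1a wt/wt replicate 4 and held 42 Igkc counts. Of the other 5 cells, each had between 5 and 17 counts of B-lineage markers, Igkc among them, although their clusters were unnamed, granulocyte-like or mesenchymal/osteolineage-like. The 2 in the unnamed cluster carried the same barcode, in Pot1a wt/wt replicates 2 and 3, with 11 and 10 Ms4a1 counts, which were most of those libraries' 16 and 17 counts of the gene.

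Ms4a2 marked a different set of cells, which the clusters had left inside the protease cluster. Of its 13 counts, 12 lay in 4 cells of that cluster, in Pot1a wt/wt replicates 4 and 5 and Pot1a fl/fl replicate 1. These 4 cells held from 42 to 132 counts of Mcpt8 and from 16 to 44 of Prss34, both proteases of basophils, and no Elane count. The fifth cell, in Pot1a fl/fl replicate 4, was monocyte/macrophage-like, with 1 count of Ms4a2 and 1 of Mcpt8. In the 9 libraries Ms4a2 was at 0 in 5, at 11.9 and 34.9 CPM in Pot1a wt/wt replicates 4 and 5 and at 6.45 and 2.60 CPM in Pot1a fl/fl replicates 1 and 4. The alpha chain gene of the same receptor, Fcer1a, had no count.

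The protease cluster was therefore divided by marker counts, with a limit of 5 counts set after the cells had been seen. It held 11 cells with at least 5 counts of 7 basophil or mast cell markers, from 6 libraries, 9 cells with at least 5 counts of 11 T or NK cell markers, from 5 libraries, and 115 cells with neither. There were 7 cells with 3 or 4 basophil or mast cell counts and 1 with 3 or 4 T or NK counts, so few cells lay near the limit for the second. In the 11 basophil-marker cells, which held 57189 counts in all, Ms4a2 was 210 CPM (12 counts, Poisson interval 108 to 367). The 4 cells with a count of it held from 809 to 2490 counts each, and the limit of 5 was not scaled to depth. In all 11 cells Ms4a3 was 420 CPM (24 counts in 3 cells, interval 269 to 624). Of these counts 2 lay in a cell with Ms4a2, and the other cells with Ms4a2 had none. Ms4a4c and Ms4a6b had no count in the basophil-marker cells, which allows up to 64.5 CPM.

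The 9 cells with T or NK markers held the counts of Ms4a4b, a gene known from T cells that is not among the 7. All 9 had a count of it, 54 of its 66 counts in all, 2746 CPM (Poisson interval 2063 to 3583). Ms4a6b had 12 counts in 5 of these cells, 610 CPM (interval 315 to 1066), while Ms4a3 had none. In the 115 cells with neither set of markers Ms4a6b was 33.7 CPM (interval 18.4 to 56.6), and 12 of its 27 granulocyte-like counts thus came from cells with T or NK markers. Of these 9 cells 7 were Pot1a wt/wt and 2 Pot1a fl/fl.

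**Figure D3:**
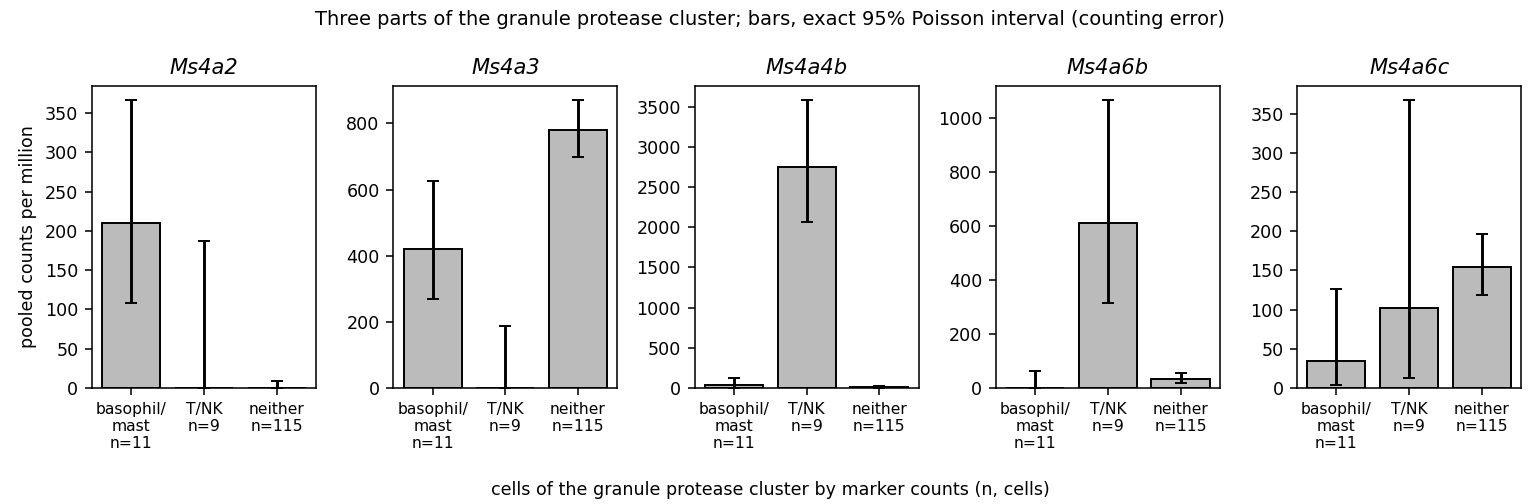
Level in CPM pooled over libraries (y axis, linear, a separate scale per gene) of 5 Ms4a genes in the 3 parts of the protease cluster, 11 cells with basophil or mast cell markers, 9 with T or NK markers and 115 with neither (x axis), with exact 95% Poisson intervals. Ms4a2 is seen only in the first part, Ms4a4b and Ms4a6b are highest in the second, and Ms4a3 is 780 CPM in the third.

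In the 115 remaining cells Ms4a3 was found in 72 and Ms4a6c in 26, and 11 cells held both. Genes this sparse are often seen in different cells whatever the pairing, and no expected overlap was computed. Ms4a3 alone had counts in 61 cells, Ms4a6c alone in 15, both in 11 and neither in 28. Cells with Ms4a3 alone held 6902 CPM of Elane, the neutrophil elastase gene, and 34.0 CPM of Irf8, a transcription factor of the monocyte and dendritic branch. Cells with Ms4a6c alone held 1582 CPM of Elane and 493 CPM of Irf8, with 425 CPM of Ccr2 and 969 CPM of the monocyte gene F13a1, which were at 12.7 and 84.9 CPM in the cells with Ms4a3 alone. The 11 cells with both lay between for Elane (2004 CPM), Irf8 (175 CPM) and F13a1 (652 CPM), and also for Ccr2, Csf1r and Ctss. They had a median of 5737 counts against 3431 and 3600 in the other 2 groups. Ly86 and Ly6c2 did not lie between. In cells with Ms4a3 alone, Ms4a6c alone and both, Ly86 was 34.0, 221 and 223 CPM and Ly6c2 2228, 2364 and 3436 CPM. The 28 cells with neither had a median of 1889.5 counts, with 966 CPM of Elane, 224 CPM of Irf8, 138 CPM of Ccr2 and 17.3 CPM of F13a1. These are sums over single cells sorted by whether a count was seen, given as a description without a test.

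**Figure D4:**
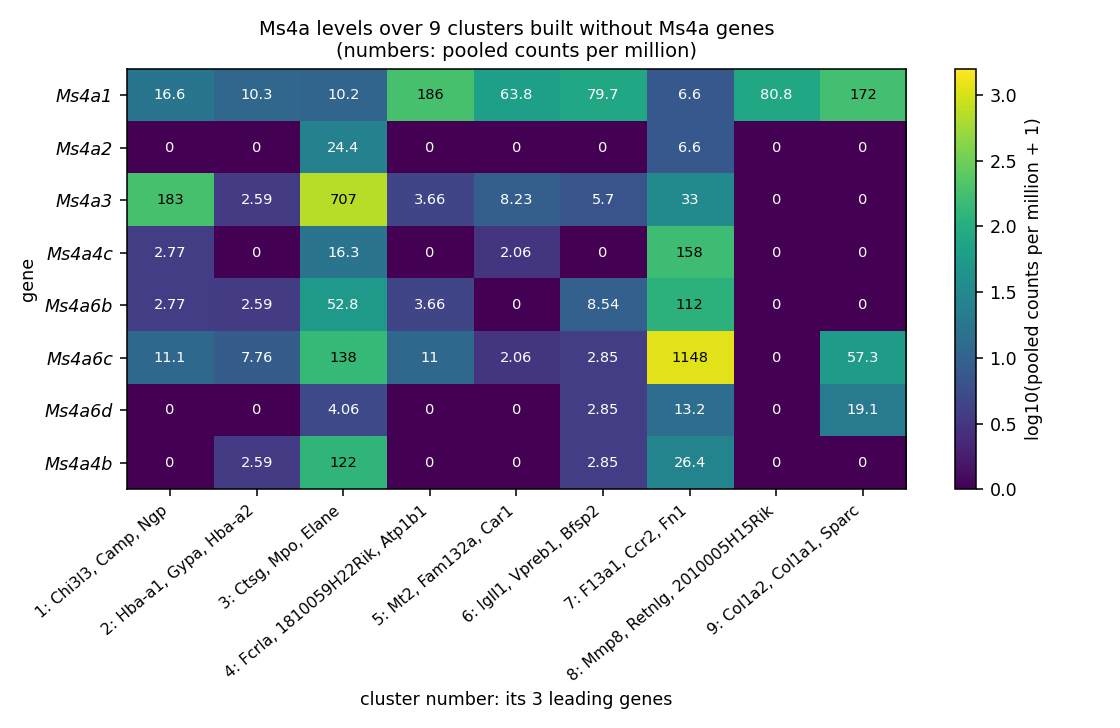
Level of the 7 genes and of Ms4a4b (rows) in the 9 clusters (columns, with their 3 leading genes), pooled over libraries; colour is log10(CPM + 1) and the numbers are CPM. Ms4a3 is highest in the protease cluster at 707 CPM and Ms4a6c in the F13a1 and Ccr2 cluster at 1148 CPM, and Ms4a1 is spread over several clusters.

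The genes most like each member over the 9 clusters were found by Pearson's r of log2(CPM + 10) among genes with at least 50 counts. For Ms4a3 they were Prss57 (r = 0.97), BC005764 (0.94), the elastase gene Elane (0.93), Gpd2 (0.92) and the proteinase 3 gene Prtn3 (0.90). For Ms4a6c they were the chemokine receptor gene Ccr2 (0.96), Fam105a (0.96), Shisa5 (0.95) and F13a1 (0.94). Ms4a4c was also most like Ccr2 (0.97), followed by Gria3 (0.95), F13a1 (0.93), C1galt1c1 (0.92) and S100a4 (0.92). For Ms4a6b the list was Gria3 (0.97), Ccr2 (0.94), Ass1 (0.94), Erp44 (0.93) and Tifab (0.93). Ms4a1 was most like Id3 (0.91), Fam114a2 (0.89), 2700050L05Rik (0.87), Mtss1 (0.86) and Arid4b (0.85), none of which is a marker on the B-lineage list. Between members, r was 0.91 for Ms4a4c with Ms4a6c and for Ms4a4c with Ms4a6b, 0.88 for Ms4a6b with Ms4a6c, and -0.63 for Ms4a1 with Ms4a3. With 9 points that share libraries and depth, these values are descriptions.

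Across genotypes, in the whole marrow, Ms4a1 was lower and Ms4a3 higher in Pot1a fl/fl libraries, and neither passed the test over all genes. Counts were summed per library and tested with edgeR's quasi-likelihood test, with a Benjamini-Hochberg adjusted p below 0.05 as the threshold. It called 3 of 4559 genes (0.0658%), among them none of the 3 members that had enough counts, and 364 genes had an unadjusted p below 0.05. In bulk sums, fewer cells of a type and less RNA per cell cannot be told apart. The summed level of 12 mesenchymal or osteolineage markers ran from 19.9 to 695 CPM in Pot1a wt/wt and from 59.9 to 14633 CPM in Pot1a fl/fl libraries, and its part in the results below was not tested.

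Ms4a1 was 151, 52.2, 51.9, 92.1 and 97.7 CPM in Pot1a wt/wt replicates 1 to 5 and 27.9, 7.12, 41.9 and 10.4 CPM in Pot1a fl/fl replicates 1 to 4. All 4 Pot1a fl/fl values were below all 5 Pot1a wt/wt values, as was the case for 0.789% of 10015 genes with at least 10 counts. Pot1a wt/wt replicates 2 and 3 had 16 and 17 counts of Ms4a1. Of these, 12 and 11 lay in cells with barcodes shared by both libraries, and 4 and 6 in other cells. Whether the separation holds with the shared cells counted once was not tested. The edgeR log2 fold (fl/fl over wt/wt) was -2.13 ± 0.48 (SE), with an unadjusted p of 0.000354 and an adjusted p of 0.269. An exact permutation test of the CPM over all 126 assignments of the genotype labels gave p = 0.0238, adjusted 0.685, where the smallest possible is 0.0079.

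The call on Ms4a1 depended on the fit. With no filter on low counts the edgeR adjusted p was 4.23e-05, and with sex as a term, read from Xist and Y-linked counts, it was 0.0288 at a log2 fold of -2.36 ± 0.40. Over the other alternatives that gave one it ran from 0.144 to 0.9998, the last without Pot1a fl/fl replicate 2. DESeq2 gave a log2 fold of -2.15 with an unadjusted p of 2.3e-05 and no adjusted p. Among libraries with Xist counts, the values were 151, 92.1 and 97.7 CPM in Pot1a wt/wt against 27.9, 41.9 and 10.4 CPM in Pot1a fl/fl, and among those with Y-linked counts 52.2 and 51.9 CPM against 7.12 CPM. The 52.2 and 51.9 CPM come from Pot1a wt/wt replicates 2 and 3, which share cells.

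Few cells carry this difference. Cells with at least 1 Ms4a1 count numbered 12, 5, 6, 11 and 6 in Pot1a wt/wt replicates and 5, 2, 5 and 2 in Pot1a fl/fl replicates, which overlap at 5. Of the 13 cells with 3 or more counts 11 were Pot1a wt/wt and 2 Pot1a fl/fl. When each cell was first scaled to its own total and the cells of a library averaged, the exact permutation p was 0.159, with means of 110 ± 82.4 and 41.0 ± 36.2 CPM (SD, n = 5 and 4). With the cells shared by Pot1a wt/wt replicates 2 and 3 counted once, the log2 fold was -2.04 ± 0.55 and the edgeR adjusted p 0.358.

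Within B-lineage-like cells Ms4a1 was 169 ± 166 CPM in Pot1a wt/wt and 57.7 ± 66.9 CPM in Pot1a fl/fl libraries (SD, n = 5 and 4, exact permutation p = 0.302), from the values given above, which overlap. The difference of -111 CPM went to -52.5 CPM without Pot1a wt/wt replicate 1 and to -153 CPM without Pot1a wt/wt replicate 2. B-lineage-like cells made up 26.3 ± 3.44% and 23.5 ± 8.81% of cells (exact permutation p = 0.548). The gene was too sparse there for the edgeR fit, in which 1 of 1516 genes was called (0.066%). The summed level of the 22 B-lineage markers with counts ran from 2084 to 4380 CPM in Pot1a wt/wt and from 1827 to 3091 CPM in Pot1a fl/fl libraries, and Ighd had no count.

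Of the genes for B-cell surface proteins and antigen presentation, 8 were tested in the whole marrow, 1 was higher and 7 lower in Pot1a fl/fl, and none passed the edgeR test. Their median log2 fold was -0.35, against -0.0017 for all genes, of which 49.7% were positive. Cd74, the invariant chain of class II molecules, was at -1.25 ± 0.61, the class II gene H2-Ab1 at -0.87 ± 0.40, the B-cell receptor gene Cd79b at -0.79 ± 0.40 and Cd81 at 0.50 ± 0.30. Within B-lineage-like cells 3 of 6 tested genes of the list were positive, with a median of -0.10 and none that passed. Cd74 and H2-Ab1 were not among those tested there. With no filter on low counts, edgeR called 4 of 9289 genes (0.0431%) in monocyte/macrophage-like cells. These were Cd74, H2-Aa, H2-Ab1 and H2-Eb1, all lower in Pot1a fl/fl. Which cells carried the whole-marrow folds of Cd74 and H2-Ab1 was not tested.

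Ms4a3 was 91.4, 55.5, 73.2, 169 and 181 CPM in the whole marrow of Pot1a wt/wt replicates 1 to 5 and 206, 377, 251 and 125 CPM in Pot1a fl/fl replicates 1 to 4. Of the 4 Pot1a fl/fl values 3 were above every Pot1a wt/wt value, and replicate 4 was within their range. The edgeR log2 fold was 1.17 ± 0.37, with an unadjusted p of 0.00565 and an adjusted p of 0.371, and the exact permutation p of the CPM was 0.0476, adjusted 0.750. With no filter on low counts the edgeR adjusted p was 0.009, and over the other alternatives it ran from 0.179 to 0.9998, the last also without Pot1a fl/fl replicate 2.

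Within granulocyte-like cells the level of Ms4a3 did not pass the test, from the library values given above, which overlap. The edgeR log2 fold was 0.25 ± 0.33 with an adjusted p of 0.969, and 1 of 1452 genes was called there (0.0689%). In the protease cluster it was 660 ± 306 CPM in Pot1a wt/wt and 811 ± 366 CPM in Pot1a fl/fl (SD, n = 5 and 4, exact permutation p = 0.524). The share of granulocyte-like cells was 30.05 ± 4.67% in Pot1a wt/wt and 43.8 ± 10.9% in Pot1a fl/fl libraries, a difference with an unadjusted exact permutation p of 0.0159. It was the lowest p among the clusters and classes whose shares were compared. The groups met at 35%, in Pot1a wt/wt replicate 1 and Pot1a fl/fl replicate 4, and Pot1a fl/fl replicate 2 was highest at 59%. This class also holds the cells with basophil or with T or NK markers in the protease cluster. The protease cluster made up 12.6 ± 5.38% and 18 ± 3.74% of cells (p = 0.151 by the same permutation test). The summed level of all 22 granulocyte markers ran from 34203 to 106496 CPM in Pot1a wt/wt and from 65336 to 145178 CPM in Pot1a fl/fl libraries, and none of the markers was at 0. The part of these shares in the whole-marrow level of Ms4a3 was not tested.

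All 9 tested genes of promyelocytes and their granules had a positive log2 fold in the whole marrow, with a median of 0.95, and none passed. Of all genes tested there 49.7% were positive. Prtn3 was at 1.40 ± 0.33 with an edgeR adjusted p of 0.292, and the myeloperoxidase gene Mpo, the cathepsin G gene Ctsg and Cst7 were at 1.23 ± 0.33, 1.20 ± 0.34 and 1.09 ± 0.42. Within granulocyte-like cells 8 of 9 were positive with a median of 0.24, against 48.7% of all genes positive, and none passed. Their log2 folds there ran from -0.02 ± 0.36 for Nkg7 to 0.52 ± 0.31 for Prtn3, with Elane at 0.04 ± 0.35.

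Ms4a6c was 31.8, 117, 91.5, 101 and 48.8 CPM in Pot1a wt/wt and 86.0, 110, 142 and 141 CPM in Pot1a fl/fl libraries, which overlap. Its edgeR log2 fold was 0.60 ± 0.31 with an adjusted p of 0.645. Within monocyte/macrophage-like cells the log2 fold was -0.08 ± 0.32 with an adjusted p of 0.958, and 0 of 291 genes were called by edgeR (0.0%), of which 24 passed 0.05 before adjustment, and 0 by DESeq2. Monocyte/macrophage-like cells were 6.62 ± 1.83% and 8.0 ± 0.82% of cells (exact permutation p = 0.206). Summed over the 16 of 17 markers of that class with counts, the level ran from 558 to 909 CPM and from 712 to 1180 CPM, and Adgre1 had no count.

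The remaining members were below the filter of the edgeR fit, and their CPM were compared by exact permutation tests. Ms4a4c was 11.9, 6.52, 6.10, 11.9 and 0 CPM in Pot1a wt/wt and 19.3, 10.7, 8.37 and 26.0 CPM in Pot1a fl/fl libraries (exact permutation p = 0.0873, adjusted 0.806). Ms4a6b was 11.9, 35.9, 6.10, 14.9 and 6.98 CPM against 23.6, 17.8, 16.7 and 23.4 CPM (permutation p = 0.444, adjusted 0.908). Without Pot1a wt/wt replicate 2, whose 35.9 CPM was the highest value, the difference in Ms4a6b rose from 5.25 to 10.4 CPM with an unadjusted exact permutation p of 0.0286, the smallest possible for 4 against 4. Without Pot1a wt/wt replicate 3 or 5 it fell to 2.99 or 3.21 CPM, each with a permutation p of 0.686. For Ms4a2 and Ms4a6d the permutation p were 0.563 and 0.230, the first 0.933 after adjustment and the second not adjusted, as its counts were too few. Within monocyte/macrophage-like cells Ms4a4c was 97.1 ± 68.6 CPM and 174 ± 71.4 CPM (SD, n = 5 and 4, exact permutation p = 0.151) and Ms4a6b 68.6 ± 101 CPM and 136 ± 84.2 CPM (p = 0.302 by permutation).

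**Figure D5:**
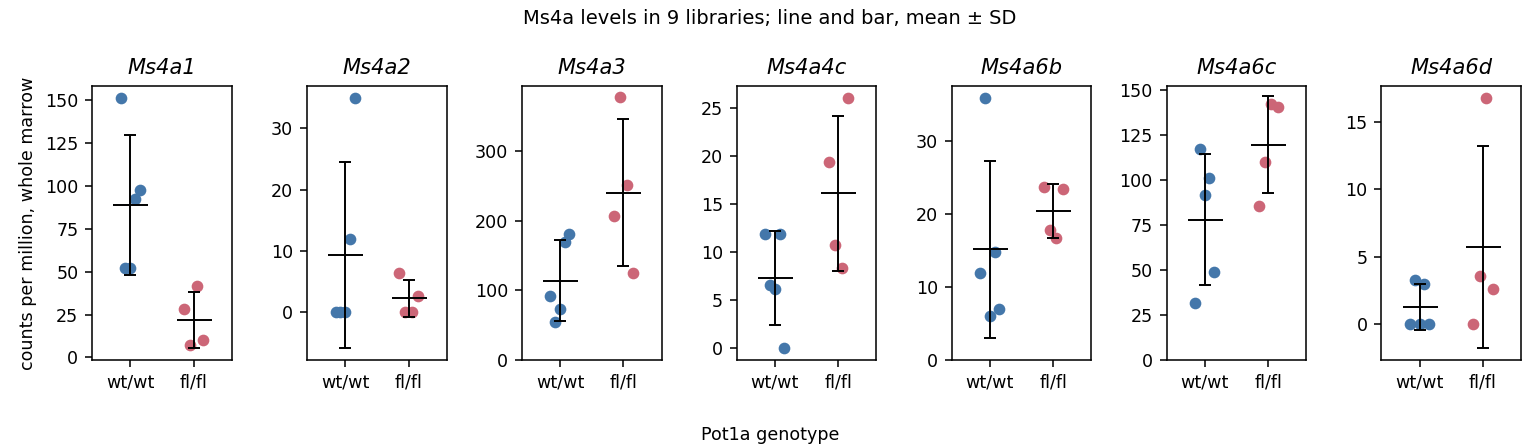
Level in CPM of the whole marrow (y axis, linear, a separate scale per gene) of the 7 genes in 5 Pot1a wt/wt and 4 Pot1a fl/fl libraries (x axis), 1 point per library, with the mean and SD. The Pot1a fl/fl points of Ms4a1 lie below all Pot1a wt/wt points, and for the other genes the groups overlap. Pot1a wt/wt replicates 2 and 3 share cells that hold most of their Ms4a1 counts.

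Among the other genes of the myeloid branch, 9 monocyte genes were tested in the whole marrow, with 7 positive and a median log2 fold of 0.37. Ly6c2, a surface antigen gene of inflammatory monocytes and their progenitors, passed, at 1.20 ± 0.20 with an edgeR adjusted p of 0.0316. It was still called when Pot1a wt/wt replicate 4 or Pot1a fl/fl replicate 1 was left out, and not when any 1 of the other 7 libraries was. The call was also lost with a replicate block, on the same libraries without the block, and with Pot1a wt/wt replicates 2 and 3, which share cells, taken as 1 library. Ly86 was at 1.28 ± 0.35, Lgals3 at 0.85 ± 0.30 and F13a1 at 0.54 ± 0.26, and these did not pass. Within monocyte/macrophage-like cells 2 of 6 tested genes of the list were positive with a median of -0.11, against 53.6% of all genes positive, and none passed. Of the genes for the IgE receptor and for basophils or mast cells, 6 were tested, 2 were positive and none passed. Mcpt8 was at -1.55 ± 0.97, Prss34 at -1.54 ± 1.12, the receptor's gamma chain gene Fcer1g, which other Fc receptors share, at 1.13 ± 0.29 and the kinase gene Syk at -0.28 ± 0.38.

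Other Ms4a genes with counts were Ms4a4b (66), Ms4a7 (10), Ms4a8a (1) and Ms4a15 (1), and none reached the edgeR filter. The related Tmem176b had 27 counts and was higher in all 4 Pot1a fl/fl libraries, from 10.7 to 33.5 CPM, than in any Pot1a wt/wt library, from 3.97 to 8.91 CPM. These levels stand for 4 or 5 counts in each Pot1a fl/fl library and 1 to 3 in each Pot1a wt/wt library. With no filter on low counts, edgeR gave an unadjusted p of 0.0965 and an adjusted p of 0.684. The exact permutation p was 0.0079, the smallest possible, and 0.621 after adjustment, and 1.25% of genes were separated in this direction. Tmem176a had 10 counts (permutation p = 0.460, adjusted 0.915).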

How the data were processed

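Gene counts per cell barcode had been made by the authors from Drop-seq reads aligned to mm10 with STAR and tabulated with the Drop-seq software, and were used as deposited, 1 table of 100 barcodes per library. The labels call them read counts, and whether molecular identifiers were collapsed is not given in the sources used here. A gene absent from a table was taken as 0. Barcodes with at least 200 counts and at most 25% mitochondrial counts were kept, and Scrublet, run on all cells, marked 13 cells as doublets, which were left in. Cells were integrated and clustered in Seurat (v5.3.0, 2000 variable genes without any Ms4a gene, 20 components, resolution 1). Clusters were named from marker lists when at least 3 markers were among their 50 leading genes, and names rebuilt this way can differ from those of the study.

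Library sums, of the whole marrow or of 1 class where a library had at least 5 of its cells, were tested with edgeR (v4.0.16, TMM, filterByExpr, quasi-likelihood) with genotype as the only term, and with DESeq2 (v1.42.0) as an alternative. Members below the filter were compared by exact permutation of CPM, two-sided. Adjustment was made in the whole marrow only, over the 10015 genes with at least 10 counts. Permutation p-values within classes or clusters, for shares of cells and with settings changed were not adjusted. The genes named are the 7 members, other Ms4a genes with counts and the Tmem176 pair, for each member with at least 30 counts the 5 genes most like it (of which 1 is not reported here), and from each gene list those that passed and up to 4 of the largest log2 fold, and genes printed from single cells or parts of a cluster were chosen after their values were seen. The members and lists were chosen with earlier results of these data known. The labels do not say whether replicate numbers pair libraries across genotypes, and the main fit did not pair them.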

Additional observations from a re-analysis of the deposited data

How the results depend on the processing

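The 10 levels and shares by class were recomputed to 155 alternative values, and all moved by less than 1 SD between libraries. Clusters were made without integration, at lower resolution or with Ms4a genes allowed, and cells were assigned singly by their markers. Other alternatives were doublets removed, counts per cell, shared barcodes counted once and each library left out. This limit is loose, since a mean over 9 libraries moves by a fraction of the SD when 1 is left out. For Ms4a1 in B-lineage-like cells the SD, 138 CPM, exceeds the mean of 119 CPM, so no fall could reach it. The share of Ms4a1 in that class, 75.5% of its level over 4 classes, ran from 54.8% to 80.7%. Of 289 genotype values recomputed, 250 were classed as unchanged. For a fold or CPM difference this means the same direction and the same side of the threshold. For a number of genes called it means an equal or similar number. The number of genes called in the whole marrow, 3, became 69 with no filter on low counts, 6 by DESeq2, 1 with a replicate block and 1 without the block on the same libraries, 1 with Pot1a wt/wt replicates 2 and 3 as 1 library, and 1 to 3 with a library left out. In B-lineage-like cells the 1 call became 12 with no filter, 4 with the replicate block and 0 by DESeq2, without the block on the same libraries, with Pot1a wt/wt replicates 2 and 3 as 1 library, with shared barcodes counted once, with cells assigned singly, with sex as a term and with any library left out. With no filter there were 8 calls in granulocyte-like, 4 in monocyte/macrophage-like and 2 in erythroid-like cells, against 1, 0 and 0, and leaving out a library gave 0 to 1 in monocyte/macrophage-like cells (1 without Pot1a fl/fl replicate 3). Ms4a1 in the whole marrow (log2 fold -2.13) passed with no filter (-2.13) and with sex as a term (-2.36), and Ms4a3 (1.17) with no filter (1.12). Ms4a3 in granulocyte-like cells went from 0.25 to -0.21 when cells were assigned singly. Ms4a6c in monocyte/macrophage-like cells went from -0.08 to 0.11 with no filter, to 0.04 without Pot1a wt/wt replicate 4 and to 0.084 without Pot1a fl/fl replicate 4, and ran from -0.20 to 0.084 with a library left out. Where a value moved, the cause was not tested.

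With the replicate block Ms4a1 was -2.21 with an edgeR adjusted p of 0.144 and Ms4a3 1.33 with 0.436. Deviations of same-numbered libraries from their group means had correlations from -0.16 to 0.01. With so few libraries of low depth, this cannot decide whether the numbers pair them. The settings for sex, shared barcodes in the genotype fits, doublets within classes, the fit on the same libraries and the mean over cells were chosen after seeing the data. DESeq2 gave no adjusted p for Ms4a1 and Ms4a6c, and too few libraries kept 5 cells of the monocyte/macrophage class with cells assigned singly, or 10 cells, for a fit. Ms4a2 and Ms4a6d had 13 and 6 counts in 899 cells, and few cells of a type and low depth cannot be told apart as limits on them.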
